A study of Mus musculus with 4 samples.

Results

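The genes described here are the 10 cell-cycle cyclin and cyclin-dependent kinase (CDK) genes Ccnd1, Ccnd2, Ccnd3, Ccne1, Ccne2, Ccna2, Ccnb1, Ccnb2, Cdk2 and Cdk4. They were taken by name, as every gene probe that the scanner files assign to one of these symbols, which gave 17 of the 41174 probes on the array and 10 of 27597 gene names. Each was followed in mouse embryonic fibroblasts (MEFs), connective-tissue cells grown from mid-gestation embryos, that lacked cyclin G1 (G1KO, CycG1-/-) or were labelled as lacking cyclin G2 (G2KO, CycG2-/-). Each knockout culture was compared with a wild-type (WT) culture of its own (CycG1+/+ or CycG2+/+) by hybridising both RNAs to the same array, once with the knockout RNA in the dye Cy5 and once with the dyes exchanged. The cells were in logarithmic growth in medium with serum. The Ccng1 allele replaced all protein-coding exons with a neomycin cassette. All cultures carry the strain label C57BL/6J, but the source field of the G2KO pair reads C57BL/7J. Each genotype was 1 culture on 2 dye-swapped arrays, so no p-value can be given, and every ± below is the SD between the 2 arrays, which is technical.

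D-type cyclins are made in response to growth factors and activate Cdk4 and Cdk6, which phosphorylate the retinoblastoma protein and free E2F transcription factors. E-type cyclins with Cdk2 then drive entry into S phase, cyclin A2 acts through S and G2, and the B-type cyclins with Cdk1 drive mitosis. In a growing culture the mRNAs of cyclins E, A and B rise and fall through the cycle, so their level in bulk RNA reflects how many cells are in each phase as well as the amount per cell, and these cannot be told apart here.

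Ccnd1 was the only one of the 10 genes whose mRNA differed at least 2-fold on both arrays of a comparison, and it did so in both knockouts. Its log2 ratio over WT was 1.13 ± 0.0003 in G1KO (2.19-fold higher). The ratio was 2.30 ± 0.01 in the RNA labelled G2KO (4.93-fold higher), here called the G2KO-labelled RNA for the reason given below. The other 9 genes lay between -0.84 and 0.61 in both comparisons. Among all genes measured at their brightest probe, 2.46% were higher and 4.48% lower by this rule in G1KO, and 2.73% were higher and 4.84% lower in the G2KO-labelled RNA. Of the 10 genes, 1 was higher and 0 were lower in each, and nothing particular to the group is read from a count of 1. The median log2 ratio of the 10 genes was -0.05 in G1KO and 0.30 in the G2KO-labelled RNA, against -0.002 and -0.02 over all genes. The WT of the G2KO pair was itself lower than the other WT, with which it is compared below. That median was -0.36 over the 10 genes, against 0.04 over all genes.

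**Figure D1:**
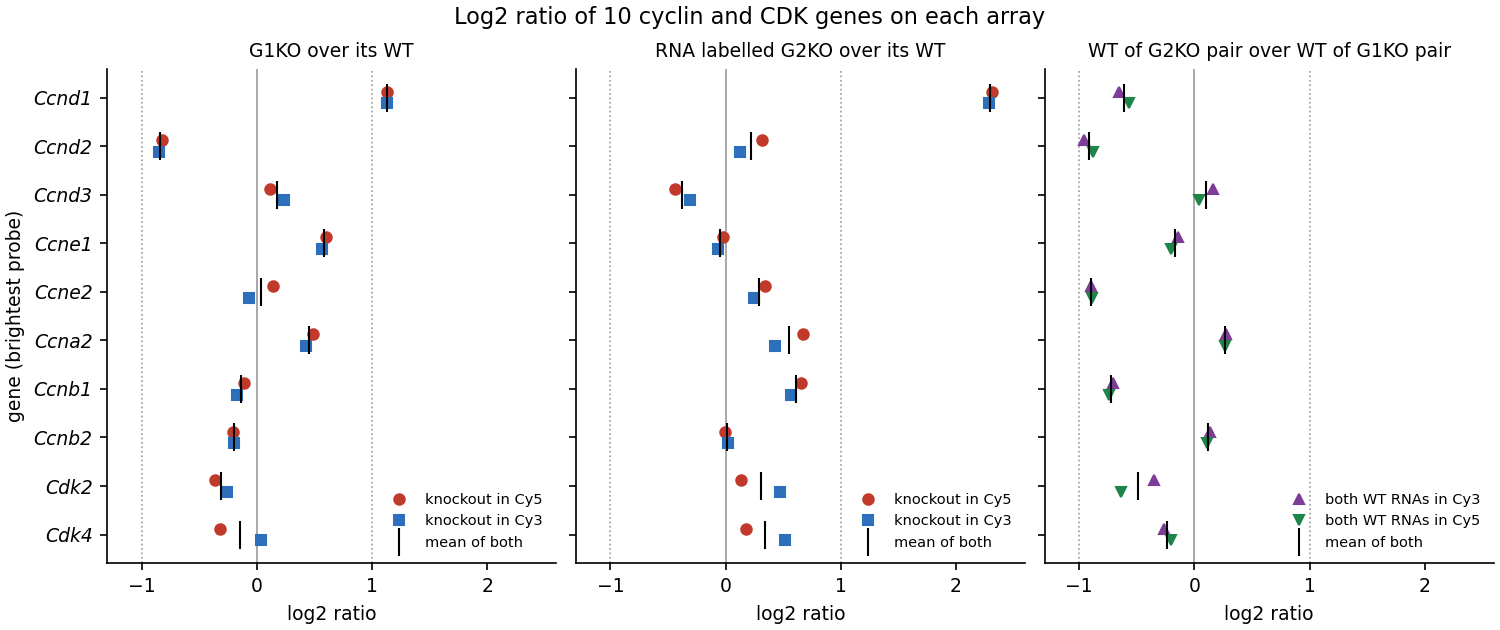
Log2 ratio of each gene at its brightest probe (vertical axis, genes ordered by role) for G1KO over its WT, the G2KO-labelled RNA over its WT, and the WT of the G2KO pair over the WT of the G1KO pair. Symbols are single arrays or dyes, the bar is their mean, and dotted lines mark a 2-fold difference. Ccnd1 alone lies beyond the 2-fold line, at 1.13 in G1KO and 2.30 in the G2KO-labelled RNA.

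All 4 arrays lay on 1 slide read in 1 scan. Ccng1 itself fell by 6.67 ± 0.13 on the log2 scale at its brighter probe in G1KO. It was 2.67 ± 0.03 higher in the G2KO-labelled RNA than in its WT. The WT RNAs differed as well: the WT of the G2KO pair minus the other WT was -2.53 ± 0.05 for Ccng1 and 1.27 ± 0.01 for Ccng2, both called. The mean level of Ccng1 was 13.81 in the G2KO-labelled RNA and 13.67 in the WT of the G1KO pair. In the WT of the G2KO pair it was 11.14. Ccng2, read by 1 probe, was not reduced in the G2KO-labelled RNA (0.28 and -0.10 on the 2 arrays), and whether that probe lies in the deleted part is not known. That RNA is therefore called G2KO-labelled throughout. Both knockout RNAs differed from their WT in sex-linked genes: Xist was higher by 7.54 in G1KO and by 7.24 in the G2KO-labelled RNA, and 3 of 4 Y-linked genes were called lower in each. All 4 (Eif2s3y, Ddx3y, Kdm5d and Uty) were well above background in both WT RNAs and in neither knockout RNA. The paper ascribes the Xist difference to the female origin of these knockout MEFs. Every split of knockout from WT RNAs below is therefore also a split by these sex-linked genes. All 10 fibroblast markers were well above background in all 4 RNAs. Of 8 mesothelial markers, all 8 were well above background in both RNAs of the G1KO pair, but 3 in the WT and 2 in the knockout RNA of the G2KO pair. Their summed level on the log2 scale was 17.76 and 18.08 (Cy5 and Cy3) in the WT of the G1KO pair, 15.94 and 15.71 in G1KO, 10.86 and 10.91 in the WT of the G2KO pair, and 11.94 and 12.07 in the G2KO-labelled RNA. The markers Wt1, Upk3b, Upk1b, Lrrn4, Krt8 and Krt18 were not well above background in the G2KO-labelled RNA. Of the 10 fibroblast markers, 6 were called lower in the G2KO-labelled RNA, while in G1KO 2 were called higher and 1 lower. Per RNA, 4 to 5 of 8 neural and glial markers were well above background, and their summed level was 13.86 and 14.01 in the WT of the G1KO pair, 11.84 and 11.68 in G1KO, 11.29 and 11.12 in the WT of the G2KO pair, and 15.07 and 15.04 in the G2KO-labelled RNA. Of 5 measured in the G2KO-labelled RNA 3 were called higher, Gpm6b at 5.90 (0.66 at its other probe), Sox2 at 5.59 and Nes at 3.37, and of 5 in G1KO 2 were called higher (Nes and Gpm6b) and 1 lower (Gpm6a, -6.19). Of 4 epithelial markers 2 to 3 were above background, and the list summed to 13.75 and 13.81 in the WT of the G1KO pair, 11.85 and 11.69 in G1KO, and 8.27 to 8.34 in the G2KO pair. Above background were also 3 to 4 of 7 muscle, 0 to 1 of 5 endothelial and 2 to 3 of 5 macrophage markers, and these lists had sums from 17.62 to 18.15, from 8.33 to 9.04 and from 8.63 to 9.77. The part of sex and of cell composition in the results below was not tested.

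Because each knockout was set against a WT of its own, the WT of the G2KO pair was also compared with the WT of the G1KO pair, within each dye. No member differed at least 2-fold in both dyes, while 6.64% of all genes were higher and 6.23% lower in the WT of the G2KO pair. The WT RNAs nevertheless differed by more than the knockout differed from its WT for 5 of the 10 genes in the G1KO comparison (Ccnb1, Ccnd2, Ccne2, Cdk2, Cdk4) and for 6 of 10 in the G2KO comparison (Ccnb1, Ccnb2, Ccnd2, Ccne1, Ccne2, Cdk2). Ccnd1 was in neither set. For how many of all genes the WT RNAs differed by more in this way was not counted. Over all genes, the shares called higher and lower were each larger between the WT RNAs than in either knockout comparison. Nothing particular to the group is therefore read from these counts.

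The proximal promoters of 4 genes are shown because their transcripts had different ratios in the G2KO-labelled RNA, as described below for Ccnb1, Ccnb2 and Cdk4 and for Cdk1, the kinase partner of the B-type cyclins. The sequences are from RefSeq on GRCm38.p6, 5′ to 3′ on the gene's strand and up to the base before the annotated start, or 10 bases past it for Ccnb2. Capitals mark CCAAT or its complement ATTGG (the box bound by NF-Y) and TTTGAA (a form of the cell cycle gene homology region). They also mark TTTCGCGC (an E2F site) and CACGTG (the E-box).
Ccnb1, chr13:100786487-100786606, minus strand: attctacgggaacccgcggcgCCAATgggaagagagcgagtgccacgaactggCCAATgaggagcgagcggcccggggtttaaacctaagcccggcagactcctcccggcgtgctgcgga
Ccnb2, chr9:70421545-70421674, minus strand: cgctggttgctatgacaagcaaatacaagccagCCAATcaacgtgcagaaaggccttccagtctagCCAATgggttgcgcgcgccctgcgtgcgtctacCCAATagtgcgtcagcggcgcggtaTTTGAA
Cdk1, chr10:69352913-69353062, minus strand: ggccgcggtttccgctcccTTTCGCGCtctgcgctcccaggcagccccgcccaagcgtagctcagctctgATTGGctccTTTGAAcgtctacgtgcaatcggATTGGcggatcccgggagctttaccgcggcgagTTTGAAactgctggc
Cdk4, chr10:127063345-127063534, plus strand: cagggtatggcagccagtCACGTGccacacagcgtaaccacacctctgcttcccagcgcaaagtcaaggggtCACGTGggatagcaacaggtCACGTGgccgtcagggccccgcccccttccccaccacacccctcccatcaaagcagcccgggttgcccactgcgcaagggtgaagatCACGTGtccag

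The motifs were searched on both strands from 250 bases before to 50 bases after each start. Beside CCAAT and the homology region TTTGAA they were the E2F sites TTTCGCGC, TTTGGCGC and TTCCCGCC, the cAMP response element TGACGTCA and the E-box CACGTG. No motif contains another. Of 32851 mouse promoters in the table, 37.4% held CCAAT, 17.9% TTTGAA, 7.15% CACGTG, 2.19% TTCCCGCC, 1.79% TGACGTCA, 0.514% TTTGGCGC and 0.323% TTTCGCGC. Ccnb1 held CCAAT 99 and 67 bases before the start and no TTTGAA, which does not show that it lacks a homology region. Ccnb2 held CCAAT 87, 54 and 21 bases before the start, and TTTGAA 167 bases before it and at base 5 after it. Cdk4 held CACGTG 172, 118, 98 and 11 bases before the start. Cdk2 held CCAAT 45 bases before the start, the second of 2 Ccnd3 promoters held it 108 bases before, and the first Ccnd3 promoter and Ccne1 held none of the motifs. Ccna2, Ccnd1, Ccnd2 and Ccne2 have no entry in the promoter table used here and were not searched. These matches are descriptions of sequence and not of binding.

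Ccnd1, the D-type cyclin most closely tied to mitogen signalling, was read by 1 probe at chr7:144739658-144739717 (build mm8, minus strand) that was printed 10 times on each array. Its log2 ratio in G1KO was 1.13 on the array with the knockout RNA in Cy5 and 1.13 on the swapped array. It was 2.31 and 2.29 in the G2KO-labelled RNA. The 10 spots ranged from 1.11 to 1.17 and from 1.1 to 1.17 on the G1KO arrays, and from 2.24 to 2.36 and from 2.22 to 2.31 on the G2KO arrays. No spot of a G1KO array overlapped those of a G2KO array, and the spot SD was 0.02 to 0.05. With each array centred on its median in place of loess, Ccnd1 in G1KO was 2.0 and 0.33 on the 2 arrays and was no longer called. Of 16586 genes, 364 had a higher ratio than Ccnd1 in G1KO and of 16510 genes, 77 had a higher ratio in the G2KO-labelled RNA.

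**Figure D2:**
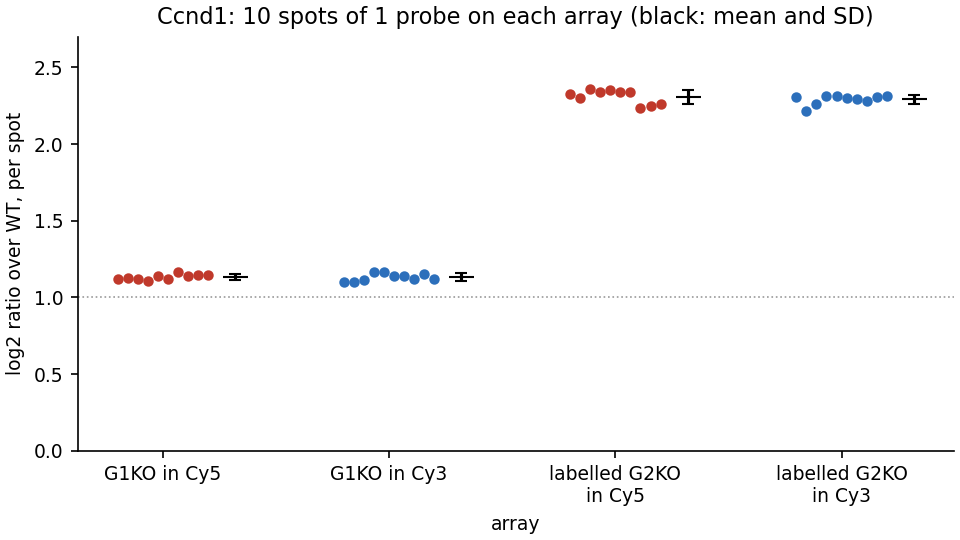
Log2 ratio of Ccnd1 over WT (vertical axis) at each of the 10 spots of its probe on the 4 arrays (horizontal axis), with the mean and SD over spots in black and the 2-fold line dotted. The spots of the G1KO arrays lie between 1.1 and 1.17, and those of the G2KO arrays between 2.22 and 2.36.

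The level of Ccnd1 was ordered the same way in both dyes. The normalised level on the log2 scale was 14.18 in Cy5 and 14.30 in Cy3 in the G2KO-labelled RNA and 13.66 and 13.71 in G1KO. It was 12.58 and 12.53 in the WT of the G1KO pair, and 12.01 and 11.87 in the WT of the G2KO pair. No neighbours in this order overlapped. The knockout RNAs differed by 0.56 ± 0.05, which is smaller than the gap between their ratios, and the WT of the G2KO pair minus the other WT was -0.61 ± 0.07. Set across the pairs in the same dye, the G2KO-labelled RNA was 1.60 and 1.78 above the WT of the G1KO pair, and G1KO was 1.65 and 1.84 above the WT of the G2KO pair. Each knockout RNA was therefore at least 2-fold above each WT RNA. Whether the knockouts differ from each other was not tested.

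**Figure D3:**
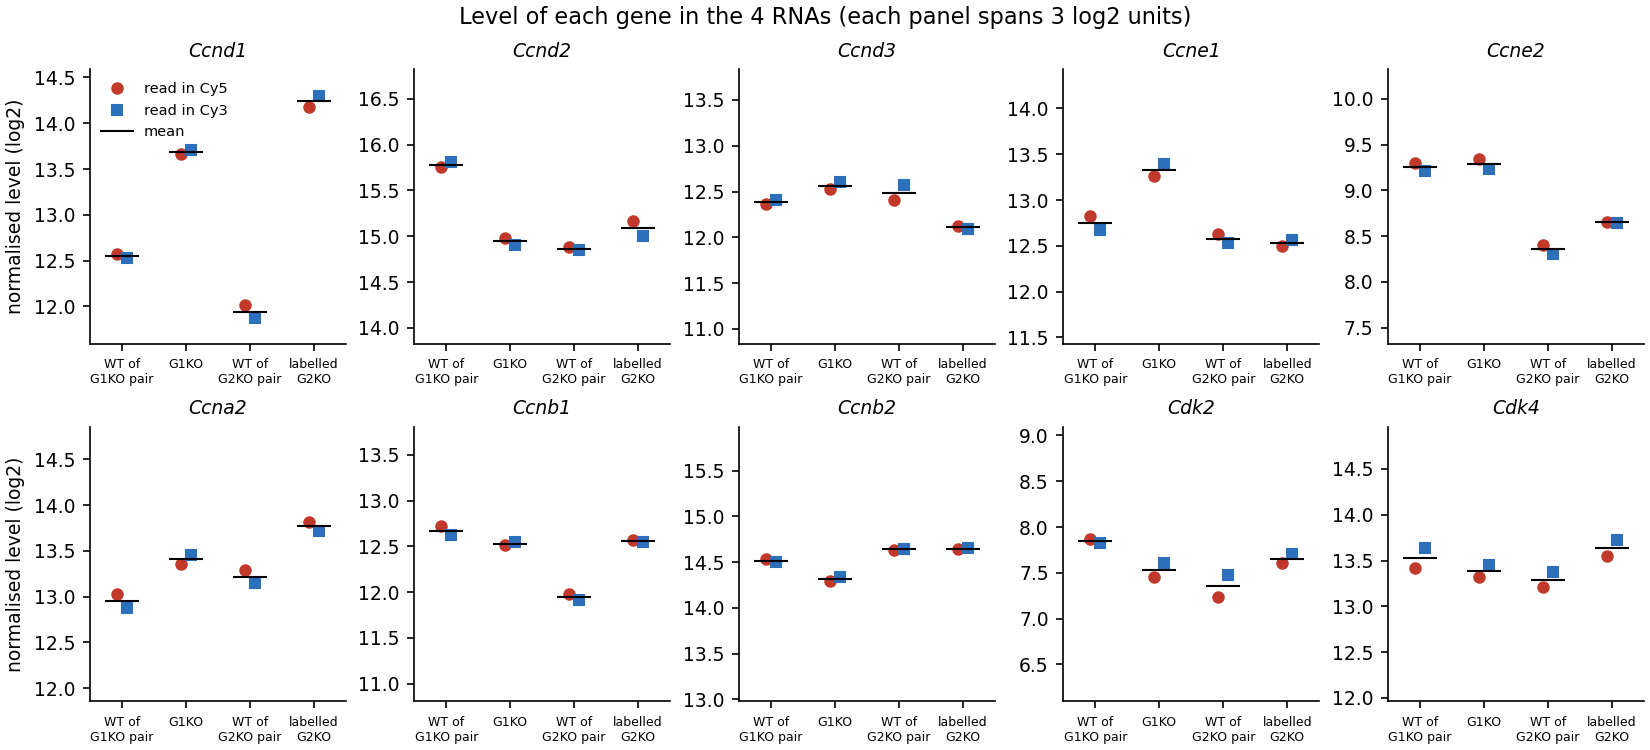
Normalised level (log2) of each gene at its brightest probe in the 4 RNAs (horizontal axis), read once in Cy5 (circles) and once in Cy3 (squares), with the mean as a bar; each panel spans 3 log2 units, and levels of different genes are not comparable. Ccnd1 is higher in both knockout RNAs than in both WT RNAs, with means of 13.68 and 14.24 against 12.55 and 11.94.

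Ccnd2, a D-type cyclin that shares the kinase partners of cyclin D1, had a ratio of the opposite sign in G1KO. Its log2 ratio was -0.83 and -0.85 in G1KO at the brightest of 3 probes, a mean of -0.84 ± 0.01 (1.79-fold lower), which missed the 2-fold rule. It was 0.32 and 0.13 in the G2KO-labelled RNA. The 3 probes, spread over chr6:127095295-127114356 (mm8), gave means from -0.90 to -0.81 in G1KO and from 0.21 to 0.22 in the G2KO-labelled RNA. The level stood at 15.76 (Cy5) and 15.81 (Cy3) in the WT of the G1KO pair, 15.17 and 15.01 in the G2KO-labelled RNA, 14.98 and 14.91 in G1KO, and 14.88 and 14.85 in the WT of the G2KO pair. No neighbours overlapped at this probe. Set against the WT of the other pair, the sign for G1KO depended on the probe. At the brightest probe G1KO was 0.08 above the WT of the G2KO pair (0.11 in Cy5 and 0.06 in Cy3). At the second probe G1KO read 14.74 and 14.71 against 14.91 and 14.88 in that WT, and at the dimmest 14.62 and 14.45 against 14.73 and 14.62, lower at both.

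Ccnd3, a D-type cyclin known for its part in lymphocyte development, was read by 1 probe at chr17:47062509-47062568 (mm8). Its log2 ratio was 0.12 and 0.24 in G1KO and -0.44 and -0.31 in the G2KO-labelled RNA. Its level was lowest in the G2KO-labelled RNA at 12.13 and 12.09 in Cy5 and Cy3, and the readings did not overlap with those of any other RNA. The other 3 RNAs had means of 12.38 to 12.56, with overlapping readings between G1KO and the WT of the G2KO pair and between both WT RNAs. Across the D-type cyclins, Ccnd1 was called higher in both comparisons, and neither Ccnd2 nor Ccnd3 was called in any.

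Ccne1, which with Cdk2 promotes the start of DNA replication, had no call, with a ratio above 0 in G1KO and near 0 in the other knockout. Its log2 ratio in G1KO was 0.60 and 0.56 at the brighter of 2 probes, a mean of 0.58 ± 0.03 (1.49-fold). In the G2KO-labelled RNA it was -0.03 and -0.07. The dimmer probe, which the array design places at the same position, gave 0.46 and 0.31 in G1KO and 0.18 and -0.02 in the G2KO-labelled RNA. Its level was 13.26 (Cy5) and 13.39 (Cy3) in G1KO, 12.83 and 12.67 in the WT of the G1KO pair, 12.63 and 12.53 in the WT of the G2KO pair, and 12.50 and 12.56 in the G2KO-labelled RNA. G1KO stood above the other 3 RNAs without overlap, and the lowest neighbours overlapped.

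Ccne2, the other E-type cyclin, had its largest difference between the WT cultures. Its log2 ratio was 0.14 and -0.06 in G1KO, where the arrays had opposite signs, and 0.35 and 0.24 in the G2KO-labelled RNA. The WT of the G2KO pair minus the WT of the G1KO pair was -0.90 in Cy3 and -0.89 in Cy5. Both probes, at chr4:11130171-11130230 and chr4:11130287-11130346 (mm8), gave a mean of -0.90. The level was 9.34 (Cy5) and 9.23 (Cy3) in G1KO and 9.30 and 9.21 in its WT, which overlapped. It was 8.65 and 8.65 in the G2KO-labelled RNA and 8.41 and 8.31 in its WT. The 2 pairs were thus separated from each other, and within the G1KO pair no difference beyond the spread was seen.

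Ccna2, the S- and G2-phase cyclin, had a ratio above 0 on all 4 arrays but did not reach 2-fold on any. Its log2 ratio was 0.48 and 0.43 in G1KO, a mean of 0.46 ± 0.04 (1.37-fold), and 0.67 and 0.43 in the G2KO-labelled RNA, a mean of 0.55 ± 0.17 (1.47-fold). The level was 13.82 (Cy5) and 13.72 (Cy3) in the G2KO-labelled RNA, 13.36 and 13.45 in G1KO, 13.29 and 13.15 in the WT of the G2KO pair, and 13.02 and 12.87 in the WT of the G1KO pair. No neighbours overlapped, so Ccna2, like Ccnd1, was higher in each knockout RNA than in each WT RNA. How many of all genes had this order was not counted, so nothing particular to these genes is read from it. The step from the WT of the G2KO pair up to G1KO was 0.07 in Cy5 and 0.31 in Cy3, which was the smallest of the 3 steps by the mean and in Cy5 but the largest in Cy3. The 1 probe lay at chr3:36756605-36756664 (mm8).

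Ccnb1, which carries Cdk1 into mitosis, had its largest knockout ratio in the G2KO-labelled RNA, without a call. It was 0.66 and 0.57 at the brightest of 3 probes, a mean of 0.61 ± 0.06 (1.53-fold), and -0.11 and -0.17 in G1KO. The 3 probes gave means from 0.48 to 0.63 in the G2KO-labelled RNA and from -0.14 to -0.05 in G1KO. The level in the G2KO-labelled RNA was 12.57 (Cy5) and 12.55 (Cy3), which overlapped with 12.51 and 12.55 in G1KO and lay just under 12.72 and 12.62 in the WT of the G1KO pair. Only the WT of the G2KO pair was apart, at 11.98 and 11.92. From the WT of the G1KO pair the G2KO-labelled RNA differed by -0.15 in Cy5 and -0.08 in Cy3 at this probe. At the other probes its mean level was 11.52 against 11.57 and 11.23 against 11.17 in that WT, so the sign of this small difference depended on the probe.

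Ccnb2, the second B-type cyclin, had a log2 ratio of -0.21 and -0.20 in G1KO. In the G2KO-labelled RNA it was -0.004 and 0.02, and the level there (14.64 and 14.66) overlapped with its WT (14.63 and 14.64). The level was 14.53 and 14.51 in the WT of the G1KO pair and lowest in G1KO, at 14.30 and 14.33. Ccnb1 and Ccnb2 thus had ratios of 0.61 and 0.01 in the G2KO-labelled RNA, a difference between genes that was not tested.

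Cdk2, the kinase partner of the E- and A-type cyclins, was dim, at 3.05 to 8.35 times the local background over its 2 probes and all channels. Its log2 ratio was -0.36 and -0.25 in G1KO and 0.13 and 0.48 in the G2KO-labelled RNA. At the dimmer probe it was -0.41 and -0.13 in G1KO and 0.19 and 0.28 in the G2KO-labelled RNA. The WT of the G1KO pair was highest at 7.87 (Cy5) and 7.82 (Cy3), and the readings of the other 3 RNAs, with means of 7.35 to 7.66, overlapped with those of their neighbours.

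Cdk4, the kinase partner of the D-type cyclins, read higher in Cy3 than in Cy5 in every RNA. Its log2 ratio was -0.32 and 0.03 in G1KO and 0.17 and 0.51 in the G2KO-labelled RNA. The level ran from 13.55 (Cy5) and 13.72 (Cy3) in the G2KO-labelled RNA through 13.41 and 13.64 in the WT of the G1KO pair and 13.32 and 13.45 in G1KO to 13.21 and 13.38 in the WT of the G2KO pair. Every pair of neighbours overlapped, and the G2KO-labelled RNA and its WT, at the ends of the order, did not. Within each dye the order was the same, and the ends differed by 0.34 in Cy5 and 0.34 in Cy3.

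**Figure D4:**
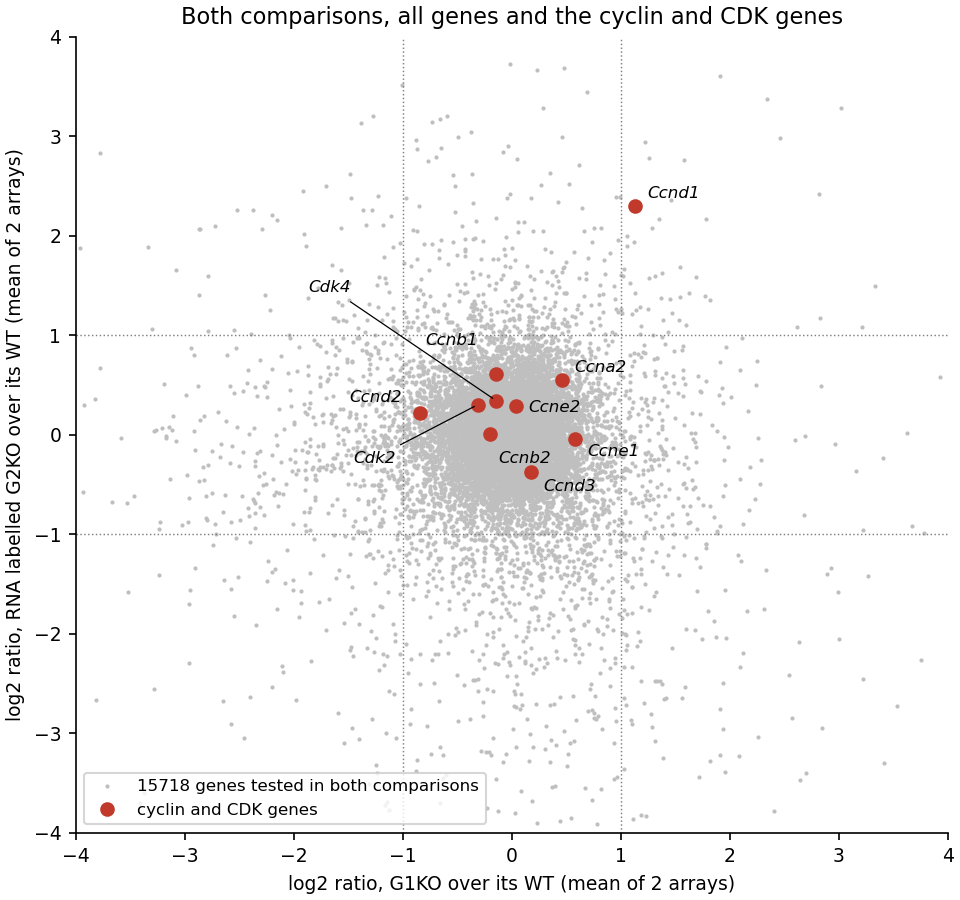
Mean log2 ratio of G1KO over its WT (horizontal axis) against that of the G2KO-labelled RNA over its WT (vertical axis) for 15718 genes measured in both comparisons (grey) and the cyclin and CDK genes (red), with 2-fold lines dotted and 68 genes outside the axes. Ccnd1, at 1.13 and 2.30, is the 1 red point beyond both lines.

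The other cyclins and CDKs of the pathway list showed no call at their brightest probes. Of 15 genes, 13 were measured in G1KO and 14 in the G2KO-labelled RNA, and 0 were called in either direction in either comparison. The probes of Ccnh differed in G1KO, where 1 of 4 was called. Their means ran from -1.67 to 0.15, with -0.85 at the brightest. Cdk1, the mitotic kinase, had a log2 ratio of -0.43 and -0.32 in G1KO and of 0.74 and 0.88 in the G2KO-labelled RNA at its brighter probe, while its other probe gave a mean of 0.10 in the G2KO-labelled RNA. Between the WT RNAs Cdk1 was -0.97 and -0.87 at its brighter probe, while its other probe gave a mean of -0.34. Cdk6, which also binds D-type cyclins, was -0.66 and -0.89 in G1KO and -0.79 and -0.93 in the G2KO-labelled RNA. It was thus lower on all 4 arrays, the opposite sign to Ccnd1, without reaching the 2-fold rule on any.

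The CDK inhibitors held the ratios of largest size among the 7 pathway lists in the G2KO-labelled RNA, though not in G1KO. Of 7 measured, 1 was called higher and 1 lower in G1KO and 1 higher and 3 lower in the G2KO-labelled RNA. Cdkn1a, which encodes p21, a p53 target that binds cyclin-CDK complexes, was 2.84 and 2.66 higher in the G2KO-labelled RNA and stood at -0.82 and -0.72 in G1KO. Cdkn2b, which encodes the Cdk4 and Cdk6 inhibitor p15, had ratios of -4.95 and -5.16 in the G2KO-labelled RNA and of -1.41 and -1.26 in G1KO. Cdkn2a, the locus of p16 and p19ARF, had a ratio of -3.21 and -3.67 in the G2KO-labelled RNA. It was 0.96 and 0.97 in G1KO. Cdkn1c, which encodes p57, was called in opposite directions, at 1.60 and 1.18 in G1KO and -3.20 and -3.30 in the G2KO-labelled RNA. The WT cultures also differed in these genes: the WT of the G2KO pair minus the other WT was -2.42 ± 0.17 for Cdkn1a, 3.33 ± 0.02 for Cdkn2a and 2.74 ± 0.35 for Cdkn1c, and it was 0.62 ± 0.12 for Cdkn2b. The median of the list was -0.07 in G1KO and -0.56 in the G2KO-labelled RNA.

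Among 20 RB, E2F, MuvB and MYB-FOXM1 regulators, 0 were called higher and 1 lower in G1KO and 1 higher and 0 lower in the G2KO-labelled RNA. The probes of E2f6 differed in the G2KO-labelled RNA, where 1 of 2 was called. Their means were -1.21 and, at the brightest, -0.12. Tfdp2, a dimer partner of E2F factors, was -1.48 and -1.59 in G1KO, with all 3 of its probes called. It was also called lower in the WT of the G2KO pair than in the other WT, at -1.18 and -1.09 and again at all 3 probes. E2f7 was called lower there too, at -1.63 and -1.68, but its other probe gave -0.72. Rb1, the retinoblastoma gene, was 2.23 and 2.43 in the G2KO-labelled RNA and -0.44 and -0.27 in G1KO, while the WT RNAs differed by -0.04. The medians of this list were 0.08 and 0.19.

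In the list of 8 CDK phosphatases and mitotic kinases, Aurkb, which encodes the Aurora B kinase of the chromosomal passenger complex, was called higher in the G2KO-labelled RNA at 1.31 and 1.30, and 0 genes were called in G1KO. For Aurkb the WT of the G2KO pair was itself lower than the other WT, at -0.80 and -0.81. Of 8 ubiquitin ligase parts and inhibitors that act on cyclins, 0 were called in either comparison. Of 8 mitogen-responsive transcription factors, 1 was called higher and 1 lower in each comparison. Egr1, an immediate early gene, was 1.60 and 1.22 in G1KO. Fosl1, which encodes the AP-1 subunit FRA1, was 1.32 and 1.30 in the G2KO-labelled RNA and 0.73 and 0.73 in G1KO. Mycn was called lower in both, at -2.76 and -3.15 in G1KO and -1.55 and -1.85 in the G2KO-labelled RNA, but its other probe gave -0.88 in G1KO. The WT of the G2KO pair minus the other WT was -2.88 for Mycn (called lower, with -0.95 at its other probe), -0.91 for Egr1 and -0.93 for Fosl1. In that comparison 3 of the 8 were called lower, Mycn, Fos (-1.51) and Junb (-1.05), and the median of the list was -0.92.

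The replication and proliferation genes mostly had small ratios above 0. In G1KO 10 of 11 measured had a ratio above 0, with a median of 0.30 and 0 called. In the G2KO-labelled RNA all 12 were above 0, with a median of 0.49, and Mcm2, a subunit of the replicative helicase, was called higher at 1.08 and 1.06. Between the WT cultures 1 of 11 lay above 0, with a median of -0.24. Rrm1, a ribonucleotide reductase subunit, was called lower in the WT of the G2KO pair at -1.13 and -1.01. The medians over all genes were -0.002, -0.02 and 0.04 in the same order of comparisons. The share of all genes above 0 was not counted, so nothing particular to the list is read from these counts. The WT of the G2KO pair was the lower of the WT cultures for most of this list, as for Ccnb1 and Ccne2. Of the 10 genes, 3 were higher in it, Ccna2 by 0.27, Ccnb2 by 0.12 and Ccnd3 by 0.10.

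**Figure D5:**
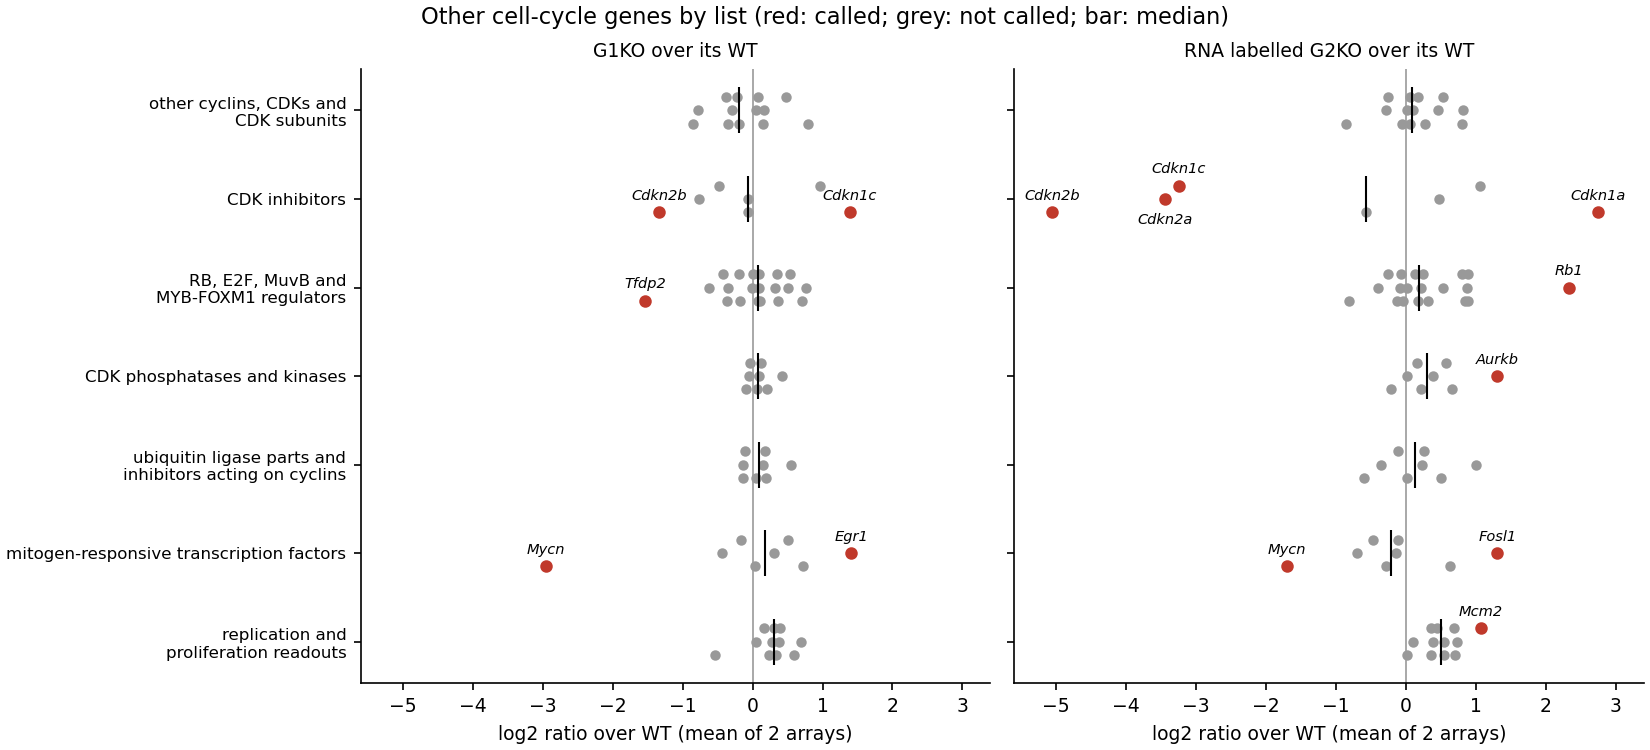
Mean log2 ratio over WT (horizontal axis) of the genes of 7 cell-cycle lists (vertical axis) in G1KO and in the G2KO-labelled RNA, with called genes in red and named, other genes in grey, and the list median as a bar. The CDK inhibitors spread furthest in the G2KO-labelled RNA, from -5.06 for Cdkn2b to 2.75 for Cdkn1a.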

How the data were processed

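RNA of each knockout culture and its WT was amplified from an oligo-dT primer and hybridised together to 45018-spot Agilent mouse arrays. The authors read the spots with Agilent Feature Extraction (10.5.1.1 per the file headers, 9.1 per the submitters' processing notes). The deposited files hold spot and background intensity on a linear scale, a log10 ratio of Cy5 over Cy3 computed by the scanner software, its p-value, with marks on spots that were saturated, dim or outlying. The authors' deposited series table repeats that log10 ratio, turned to knockout over WT. The deposited p-value column was not used.

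The intensity was background-corrected (normexp, offset 50) and normalised by loess with limma 3.58.1 in R 4.3.3, without control and outlier spots (114 to 203 outliers per array). No spot was saturated. Spots of a probe were averaged and ratios turned to knockout over WT on the log2 scale. Levels per channel were taken after Aquantile normalisation. The offset shrinks the ratios of dim probes. A probe was measured where it was well above background on both arrays in at least 1 RNA, giving 25531 probes (G1KO) and 25423 probes (G2KO), and a gene was read at its brightest such probe. All 17 probes of the 10 genes were well above background in every channel. Called means a log2 ratio of at least 1, in the same direction, on each array. The WT RNAs were compared within each dye, across arrays. The procedure was tested on simulated data, with changes of known size added to probes with small ratios. At a log2 brightness of 9 or more, 100% of changes of 1.5 were called. Below 9, 33.8% were called in G1KO and 30.8% in the G2KO-labelled RNA, and 65.6% of changes of 3.0 in each. Levels of Cdk2 lay below 9 and those of Ccne2 around 9, so their missing calls say little. Array number limits precision.

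Genes other than the 10 were named through RefSeq (GRCm38.p6), by accession for 24367 probes, symbol for 6307 and older symbol for 2425, and 8075 kept the file's name. Probe positions are those of the array design (mm8), and the exon or untranslated region they fall in was not analysed here. The genes named were the 10 members, Ccng1, Ccng2, Cdk1, Cdk6 and called members of 7 pathway lists. The members, lists, markers and motifs were chosen with earlier results of these data known. The alternatives tried were the scanner's ratio, the series table, median centring, other background corrections, filters, thresholds and probe choices, outlier spots kept, and each array alone.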

Additional observations from a re-analysis of the deposited data

Results flagged for a closer look

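For 5 of the 10 genes, both arrays of G1KO lay on one side of 0 and both arrays of the G2KO-labelled RNA on the other. The difference between the comparisons was not tested for any of them. The share of all genes with such opposite signs was not counted, so nothing particular to the group is read from this count. For Ccnd2 the log2 ratio was -0.84 in G1KO and 0.22 in the G2KO-labelled RNA, a difference of 1.06. For Ccnb1 the values were -0.14 and 0.61, a difference of 0.75. For Cdk2 they were -0.31 and 0.30, a difference of 0.61. For Ccne1 they were 0.58 and -0.05, a difference of -0.63, and for Ccnd3 they were 0.18 and -0.38, a difference of -0.55. The sign of Ccne1 in the G2KO-labelled RNA depended on the probe, as its dimmer probe gave a mean of 0.08. For Ccnd2, Ccnb1 and Cdk2 the WT RNAs themselves differed by -0.92, -0.73 and -0.49, with the WT of the G2KO pair lower.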

How the results depend on the processing

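The count of the 10 genes called was 1 in each knockout comparison and 0 between the WT RNAs. It was 1 in both knockout comparisons and 0 between the WT RNAs with either array or dye alone. In the knockout comparisons Ccnd1 was called under every alternative but 1. With median centring in place of loess, 0 genes were called in G1KO, where Ccnd1 was 2.0 on the array with the knockout RNA in Cy5 and 0.33 on the swapped array. At 1.5-fold, 2 genes were called in G1KO, Ccnd1 higher and Ccnd2 lower, and 3 between the WT RNAs, Ccnb1, Ccnd2 and Ccne2, all lower in the WT of the G2KO pair. The ratio of Ccnd1 stayed between 1.13 and 1.20 in G1KO and 2.29 to 2.42 in the G2KO-labelled RNA over all alternatives. Of 30 member values, 26 kept their sign under every alternative. Ccne2 and Cdk4 in G1KO and Ccnb2 in the G2KO-labelled RNA changed it with 1 array alone, and Ccne1 in the G2KO-labelled RNA did with median centring and with the median over its probes. The largest move with both arrays was 0.23, for the dim gene Cdk2 in the G2KO-labelled RNA.

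Calls over all genes numbered 408 higher and 743 lower for G1KO, and 450 and 799 for the G2KO-labelled RNA. The scanner's ratio gave 924 and 1135, and 963 and 1443, the values of the series 923 and 1133, and 962 and 1441, median centring 234 and 396, and 248 and 495, and the 1.5-fold rule 994 and 1517, and 1171 and 1584. Between the WT RNAs 1123 and 1053 were called, 2062 and 1682 from the scanner's processed signals, and 2477 and 1930 at 1.5-fold. Each ratio pairs a knockout RNA with its own WT on the same array. No test of these pairs was possible because each pair of arrays is 1 replicate of the same RNAs. The labels give no replicate numbers.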
